A study of Mus musculus with 24 samples.

Results

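The libraries described here hold the effect of Cbfb loss in Phase 1 cells, the earliest Notch-stimulated T progenitors. They comprise the 3 sgCbfb and 3 sgCont Phase 1 libraries of the first experiment, 6 of the 24 QuantSeq libraries of the series, and were chosen by their labels alone. The cells came from Cas9-LP, a line of lymphoid progenitors (LPs) derived from fetal liver of mice that lack Ebf1 and carry Cas9 in the Rosa26 locus. Every group, controls included, therefore shares the loss of Ebf1 and the expression of Cas9. The cells were transduced with retroviruses that carried human NGFR as a marker and sgRNAs against Cbfb (sgCbfb) or luciferase (sgCont), with several sgRNA vectors pooled for each target, and were placed on OP9 stroma that expressed the Notch ligand DLL4 for 2 days. Cells positive for hNGFR and CD45 were sorted 5 days after transduction, and their RNA was read by 3′ end sequencing. The libraries compared with them were LPs kept on OP9 without the ligand, with 3 sgCont and 3 sgCbfb libraries in the first experiment and the same numbers in a second. Cas9-LP is a cell line and not a set of animals, and the genotypes of single cells are not given, so an sgCbfb library may hold cells with and without a disrupted gene.

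CBFβ is the partner that RUNX1, RUNX2 and RUNX3 share. It does not bind DNA by itself but raises the affinity of the RUNX proteins for DNA, so its loss impairs all 3 family members together. RUNX proteins activate some genes and repress others, and in lymphoid progenitors they act beside Notch signalling, which starts the T-lineage program through targets such as Tcf7, Gata3, Hes1 and Il2ra. The comparison asks which genes need, and which are held down by, the RUNX/CBFβ complex once Notch signalling is on.

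A gene with 0 reads in a Phase 1 library may still be present at up to 1.77 to 2.20 counts per 1e6 reads on genes (CPM), a limit from counting error only. Values are CPM, and a mean is given ± SD over the 3 libraries of a group. All 10 markers of Phase 1 cells were detected, with summed levels of 2294.5 to 2574.2 CPM in sgCont and 1930 to 2033.3 CPM in sgCbfb. Bcl11b, a marker of T-lineage commitment that should be low in Phase 1, stood at 438 ± 72.2 CPM in sgCont. Some markers of B cells (such as Cd79a), monocytes (Cd14), NK cells (Ncr1 and Eomes) and mast cells (Fcer1a and Ms4a2) had 0 reads in all 6 libraries, and Lyz2 had 2 reads in sgCont and 1 in sgCbfb. Other markers of the same cell types had reads. Itgam was at 26.1 ± 6.64 CPM in sgCont and 22.15 ± 6.67 CPM in sgCbfb. Csf1r had 12 reads in sgCont and 22 in sgCbfb, Cd79b 5 and 12, Pax5 5 and 5, Klrb1c 1 and 4, and Tbx21 3 and 0. Adgre1, Zbtb16 and Cpa3 are described below. Erythroid markers summed to 2.2 to 3.53 CPM in sgCont and 0.589 to 4.54 CPM in sgCbfb, and the B cell markers, of which Ebf1 transcripts made up nearly all, to 150 to 206 and 146 to 181 CPM. Of 8 OP9 stroma markers, Sparc alone had reads in sgCbfb, 25 in total against 0 in sgCont. The library of sgCont replicate 3 stood apart from its group. Its correlations with the other sgCont libraries across genes were 0.887 and 0.893, while those libraries correlated at 0.954 with each other and the sgCbfb libraries at 0.957 to 0.961. Depth was 1363264 to 1550042 reads on genes in sgCont and 1542343 to 1696866 in sgCbfb, and mitochondrial genes took 7.03% to 7.87% and 7.11% to 7.54% of the values. The totals of calls, and counts that move by over 1.5 times without it, are given with and without sgCont replicate 3.

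Of 13239 genes tested, 206 were lower in sgCbfb than in sgCont Phase 1 cells (1.56%) and 260 were higher (1.96%), 3.52% in all. A gene was called when limma gave a Benjamini-Hochberg adjusted p under 0.05, the log2 ratio of the group means was beyond 1 in either direction and a group mean exceeded 10 CPM. Without sgCont replicate 3, 225 genes were lower and 258 higher, and 186 and 217 of these were among the calls made with all libraries. The lower genes were expressed at a summed 21715 CPM in sgCont and 5738 CPM in sgCbfb, that is, 2.17% and 0.574% of all reads. The higher genes took 0.752% of reads in sgCont and 2.25% in sgCbfb. Falls had a median log2 fold change of -1.92 and rises of 1.69, beside 0.06 over all genes tested. Fold changes are on the log2(CPM + 1) scale, which understates changes of genes at low level. Among the falls, 95 exceeded 2 on the log2 scale and 34 exceeded 3. Among the rises, the numbers were 96 and 24. In 205 of the 206 falls and in all 260 rises the 3 sgCont libraries did not overlap the 3 sgCbfb libraries, while 21.0% of all tested genes had groups that did not overlap. Nearly all calls were protein-coding genes, 195 of the falls and 255 of the rises. In bulk RNA, fewer cells of a type and less RNA per cell cannot be told apart.

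**Figure D1:**
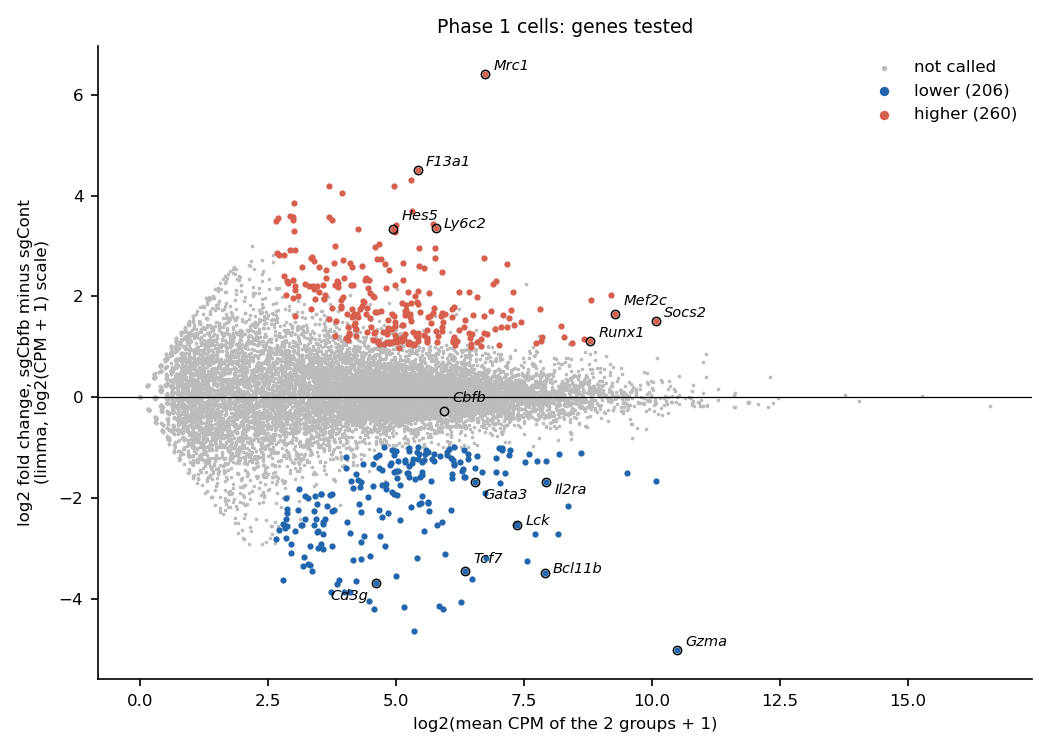
Log2 fold change (sgCbfb minus sgCont, limma on log2(CPM + 1)) against the mean level of the groups on a log2 scale, with a point for each of the 13239 genes tested in Phase 1 cells. Blue points are the 206 genes called lower, orange points the 260 called higher and grey points the rest, and Cbfb itself lies among the grey points near 0.

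The largest falls and rises were examined at their promoters, since RUNX proteins bind TGTGGT and TGCGGT. The promoter sequences are those of RefSeq on GRCm38.p6, printed 5′ to 3′ on the strand of the gene, from 250 bases before the annotated start to 25 after it. Capitals mark the match, which reads ACCACA or ACCGCA where the motif lies on the opposite strand. The first sequences belong to Gzma, Tnfrsf9 and Cpa3, the genes with the largest falls whose promoter held a match.

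Gzma, chr13:113100957-113101231, minus strand: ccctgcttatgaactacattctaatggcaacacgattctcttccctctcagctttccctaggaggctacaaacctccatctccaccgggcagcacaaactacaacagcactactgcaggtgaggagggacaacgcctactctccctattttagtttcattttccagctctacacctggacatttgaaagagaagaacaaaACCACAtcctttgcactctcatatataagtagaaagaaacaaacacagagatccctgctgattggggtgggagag
Tnfrsf9, chr4:150927749-150928023, plus strand: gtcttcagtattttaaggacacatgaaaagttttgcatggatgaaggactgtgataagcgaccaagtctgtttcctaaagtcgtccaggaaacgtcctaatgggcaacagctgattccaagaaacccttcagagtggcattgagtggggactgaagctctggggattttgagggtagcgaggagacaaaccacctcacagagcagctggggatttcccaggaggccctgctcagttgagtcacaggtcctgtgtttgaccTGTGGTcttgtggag
Cpa3, chr3:20242157-20242431, minus strand: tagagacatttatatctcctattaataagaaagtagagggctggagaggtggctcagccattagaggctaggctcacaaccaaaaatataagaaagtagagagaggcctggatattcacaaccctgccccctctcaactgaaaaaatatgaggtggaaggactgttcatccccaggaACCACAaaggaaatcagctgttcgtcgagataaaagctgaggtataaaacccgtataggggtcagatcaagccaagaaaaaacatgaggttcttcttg

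The match began 50 bases before the start in Gzma, 73 before it in Cpa3 and 10 after it in Tnfrsf9. Tnfrsf9 has 2 annotated promoters, of which the one with a match is shown, and Ly6c2 has 2 with a match, of which the first is shown. The next sequences belong to Ly6c2, Dlk1 and Rhob, the genes with the largest rises whose promoter held a match.

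Ly6c2, chr15:75111947-75112221, minus strand: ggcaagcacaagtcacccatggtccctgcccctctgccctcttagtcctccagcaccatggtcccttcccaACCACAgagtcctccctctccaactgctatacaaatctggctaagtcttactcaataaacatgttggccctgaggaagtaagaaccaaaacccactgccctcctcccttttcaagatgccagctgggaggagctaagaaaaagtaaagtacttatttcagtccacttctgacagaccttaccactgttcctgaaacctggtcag
Dlk1, chr12:109452573-109452847, plus strand: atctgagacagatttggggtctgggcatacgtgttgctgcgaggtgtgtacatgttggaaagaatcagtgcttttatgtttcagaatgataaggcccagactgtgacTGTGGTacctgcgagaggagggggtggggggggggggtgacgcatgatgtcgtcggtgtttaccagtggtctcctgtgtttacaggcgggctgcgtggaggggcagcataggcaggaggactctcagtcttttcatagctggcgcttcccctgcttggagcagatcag
Rhob, chr12:8499985-8500259, minus strand: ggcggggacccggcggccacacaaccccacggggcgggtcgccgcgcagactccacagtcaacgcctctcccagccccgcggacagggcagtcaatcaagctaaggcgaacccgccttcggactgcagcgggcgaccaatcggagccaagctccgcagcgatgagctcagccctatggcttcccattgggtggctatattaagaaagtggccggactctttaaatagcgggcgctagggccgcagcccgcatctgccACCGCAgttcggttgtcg

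The matches of Ly6c2 and Dlk1 lay farther upstream, at 179 and 143 bases before the start, and that of Rhob was TGCGGT at 7 bases after it. Promoters could be matched by symbol for 10 of the 12 largest falls and 10 of the 12 largest rises, and 5 and 3 of these held TGTGGT or TGCGGT on either strand. Among all calls, 49 of the 154 lower genes with a promoter in the table held a match (31.8%) and 49 of the 199 higher genes (24.6%). The share was 25.0% among the 9345 tested genes with a promoter and 22.4% among all 32851 promoters of that length. TGTGGT alone was in 24.7% of the lower, 18.1% of the higher and 15.3% of all tested genes. TGCGGT alone was in 10.4% of the lower and 8.54% of the higher genes, both below the 11.3% of all tested genes. TGGGAA, the core bound by the Notch cofactor RBPJ, was in 29.9% of the lower and 28.6% of the higher genes, beside 26.2% of all tested genes. These shares describe the letters in the window and were not tested, and they say nothing of binding. A gene counted as holding a motif when any of its annotated promoters did, and genes had up to 9 of them.

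Cbfb mRNA did not separate the groups in Phase 1 cells. It was measured at 73.4, 81.3 and 44.7 CPM in the sgCont libraries and at 44.1, 63.5 and 54.2 CPM in the sgCbfb libraries, so the groups overlapped (log2 fold change -0.27 ± 0.22, SE; limma, adjusted p = 0.59). The overlap came from sgCont replicate 3. Without that library the log2 fold change was -0.53 ± 0.21 (SE), which did not pass the test either (limma, adjusted p = 0.16). In LPs of the first experiment Cbfb fell from 86.5 ± 9.30 to 40.2 ± 5.18 CPM, and the difference between the stages did not pass the test (adjusted p = 0.31). In LPs of the second experiment Cbfb fell from 114 ± 8.37 to 48.4 ± 6.93 CPM. Small insertions and deletions at a cut site leave the 3′ end of a transcript in place, so the level of these reads does not check the label.

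The RUNX genes themselves differed. Runx1 was higher, with 258, 296 and 280.2 CPM in sgCont and 626, 562 and 621 CPM in sgCbfb, and also rose in LPs (interaction 0.10, adjusted p = 0.91). Runx2 stood at 21.2, 32.9 and 18.3 CPM in sgCont and at 86.9, 73.5 and 63.1 CPM in sgCbfb, a log2 rise of 1.62 ± 0.24 (adjusted p = 0.00013). In LPs of the first experiment Runx2 was at 52.7 ± 13.9 CPM in sgCont and 47.7 ± 1.75 CPM in sgCbfb, and the stages differed (interaction 1.73, adjusted p = 0.0087). In LPs of the second experiment Runx2 was higher with sgCbfb, at 74.1 ± 12.8 CPM against 50.0 ± 5.84 CPM in sgCont. That rise passed the test but was not called (log2 0.55 ± 0.16, limma, adjusted p = 0.025). Runx3 was at 352 ± 9.47 CPM in sgCont and 422 ± 22.2 CPM in sgCbfb and did not pass the test (adjusted p = 0.21). Of 18 members of the RUNX complex and its partners, which include the TLE corepressors, p300, HDACs, CTCF and MED12, Runx1 and Runx2 were the only 2 called. Exons of Runx1 and Runx2 overlap antisense genes over 106 and 519 bases, and whether the authors counted by strand is not given in the sources used here.

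The largest falls included genes of cytotoxic granules, the T cell receptor and costimulation. The 12 largest falls and the 12 largest rises were chosen among calls whose groups did not overlap, so their separation was required by that rule. Gzma, a serine protease of cytotoxic granules (chr13:113093825-113100981), was read at 2837, 2378 and 3093 CPM in sgCont and at 109.6, 86.7 and 61.3 CPM in sgCbfb, a log2 change of -5.03 ± 0.39 (adjusted p = 1.3e-08). Every sgCbfb library lay far below every sgCont library, with means 32.3-fold apart. Nkg7, a membrane protein of the same granules, was at 140.5, 115 and 175 CPM in sgCont and 9.08, 3.77 and 11.8 CPM in sgCbfb. Esm1, a secreted proteoglycan encoded next to Gzma, stood at 79.1, 55.5 and 97.6 CPM in sgCont and at 5.19, 1.89 and 0.589 CPM in sgCbfb. These 3 genes had no overlap between groups, as the rule for choosing them required. The interactions of Nkg7 and Esm1 (-2.07 ± 0.61 and -2.09 ± 0.71, SE) did not pass the test (adjusted p = 0.12 and 0.24).

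Components of the T cell receptor (TCR) complex were among the largest falls. Cd247, the CD3ζ chain, was at 52.9, 47.7 and 21.3 CPM in sgCont and 2.59, 0.628 and 1.18 CPM in sgCbfb (log2 -4.06 ± 0.54, adjusted p = 3.5e-05). Cd3g, the CD3γ chain, was at 57.9, 40.6 and 33.7 CPM in sgCont and 3.89, 1.89 and 1.77 CPM in sgCbfb (log2 -3.70 ± 0.54, adjusted p = 9.7e-05). Cd3d, the CD3δ chain encoded beside Cd3g, was at 16.2, 16.8 and 22.7 CPM in sgCont and had 3 reads or fewer in each sgCbfb library. Cd3e, the CD3ε chain, was at 9.88, 3.23 and 6.60 CPM in sgCont and 0.648, 0 and 0 CPM in sgCbfb, which passed the test (adjusted p = 0.0042) but stayed under the 10 CPM required of a call. For Cd247 and Cd3g the LP levels of sgCont were 5.14 ± 0.738 and 0.411 ± 0.357 CPM, and the sgCbfb effect differed between the stages (interactions -3.59 and -4.61, adjusted p = 0.016 and 0.0017). The interaction of Cd247 did not pass without sgCont LP replicate 2, sgCbfb LP replicate 2 or sgCbfb Phase 1 replicate 2 (adjusted p = 0.0509, 0.0567 and 0.0508).

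Other large falls were in genes of signalling, metabolism and granules. Tnfrsf9 (4-1BB), a costimulatory receptor, was at 41.6, 28.4 and 60.9 CPM in sgCont and 0.648, 1.26 and 2.36 CPM in sgCbfb. Cpa3, the mast cell carboxypeptidase that early T progenitors also express, was at 71.3, 48.4 and 80.0 CPM in sgCont and 1.30, 3.77 and 3.54 CPM in sgCbfb. Cd7, a surface glycoprotein of T and NK cells, was at 90.3, 125 and 104 CPM in sgCont and 9.72, 6.28 and 1.77 CPM in sgCbfb. Mast cell markers summed to 48.4 to 80.0 CPM in sgCont and 1.30 to 3.77 CPM in sgCbfb, all of it Cpa3. The groups were apart for all of these, as the rule for choosing them required. Cpa3 alone of them lost its call in an alternative, with a pseudocount of 0.1 (adjusted p = 0.0503). Chdh, the choline dehydrogenase, was at 152, 125 and 60.9 CPM in sgCont and 10.4, 3.14 and 2.95 CPM in sgCbfb. The neighbour of Chdh, the cytokine receptor gene Il17rb, fell from 17.0 ± 8.01 CPM to a level of 3 reads or fewer in each sgCbfb library, but lost its call with a pseudocount of 0.1 and with DESeq2. Sytl3, Smim5 and 1500009L16Rik completed the 12 largest falls, from means of 25.7, 33.1 and 26.2 CPM in sgCont to 1.03, 2.13 and 1.26 CPM in sgCbfb. Tspan9, a tetraspanin, fell from 17.7 ± 3.04 to 0.844 ± 0.958 CPM. In all, 17 of the 206 lower genes were at 3 reads or fewer in each sgCbfb library.

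Among the largest rises were those of Mrc1, F13a1 and Ly6c2. Mrc1, the mannose receptor (chr2:14229392-14332057), was at 2.82, 1.29 and 0.733 CPM in sgCont and at 201, 204 and 223 CPM in sgCbfb, a log2 change of 6.41 ± 0.34 (adjusted p = 1.7e-10). F13a1, the coagulation factor XIII A chain, was at 4.24, 2.58 and 1.47 CPM in sgCont and 90.8, 73.5 and 78.4 CPM in sgCbfb. Ly6c2, a surface antigen of monocytes, was at 8.47, 9.68 and 8.07 CPM in sgCont and 101, 106 and 87.8 CPM in sgCbfb. The groups were separate for each of these, as the rule for choosing them required. Their interactions of 1.04 ± 0.48, 0.54 ± 0.43 and 0.91 ± 0.33 (SE) did not pass the test (adjusted p from 0.27 to 0.73). Reads of Ly6c2 cannot be kept apart with certainty from those of its near-identical copy Ly6c1.

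Dntt, the terminal deoxynucleotidyl transferase of lymphoid progenitors, was at 2.82, 5.16 and 7.33 CPM in sgCont and 64.2, 54.0 and 48.3 CPM in sgCbfb. Hes5, a Notch target that encodes a repressor, was at 3.53, 4.52 and 5.13 CPM in sgCont and 75.2, 40.2 and 50.1 CPM in sgCbfb (log2 3.34 ± 0.49, adjusted p = 9.7e-05). Dlk1, a transmembrane protein related to Notch ligands, was at 4.24, 1.94 and 0.733 CPM in sgCont and 31.8, 17.0 and 22.4 CPM in sgCbfb. All sgCbfb libraries lay above all sgCont libraries for these genes, as the rule for choosing them required. Bank1, a B cell scaffold protein, rose from 14.4 ± 10.8 to 91.5 ± 7.50 CPM, and Rhob, a small GTPase, from 5.34 ± 4.53 to 40.8 ± 5.03 CPM. Ccn3, a matricellular protein, rose from 5.10 ± 4.17 to 43.4 ± 10.3 CPM. Pygm, the muscle glycogen phosphorylase, rose from 5.72 ± 4.35 to 56.1 ± 13.03 CPM. Slc44a1, a choline transporter, was at 2.82, 7.74 and 4.40 CPM in sgCont and 81.7, 66.6 and 69.0 CPM in sgCbfb, and Gas7, a regulator of the cytoskeleton, at 12.7, 7.10 and 5.13 CPM in sgCont and 94.0, 91.1 and 99.0 CPM in sgCbfb. The effects on Slc44a1 and Gas7 were larger in Phase 1 than in LPs (interactions 3.04 and 2.38, adjusted p = 0.0023 and 0.001).

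**Figure D2:**
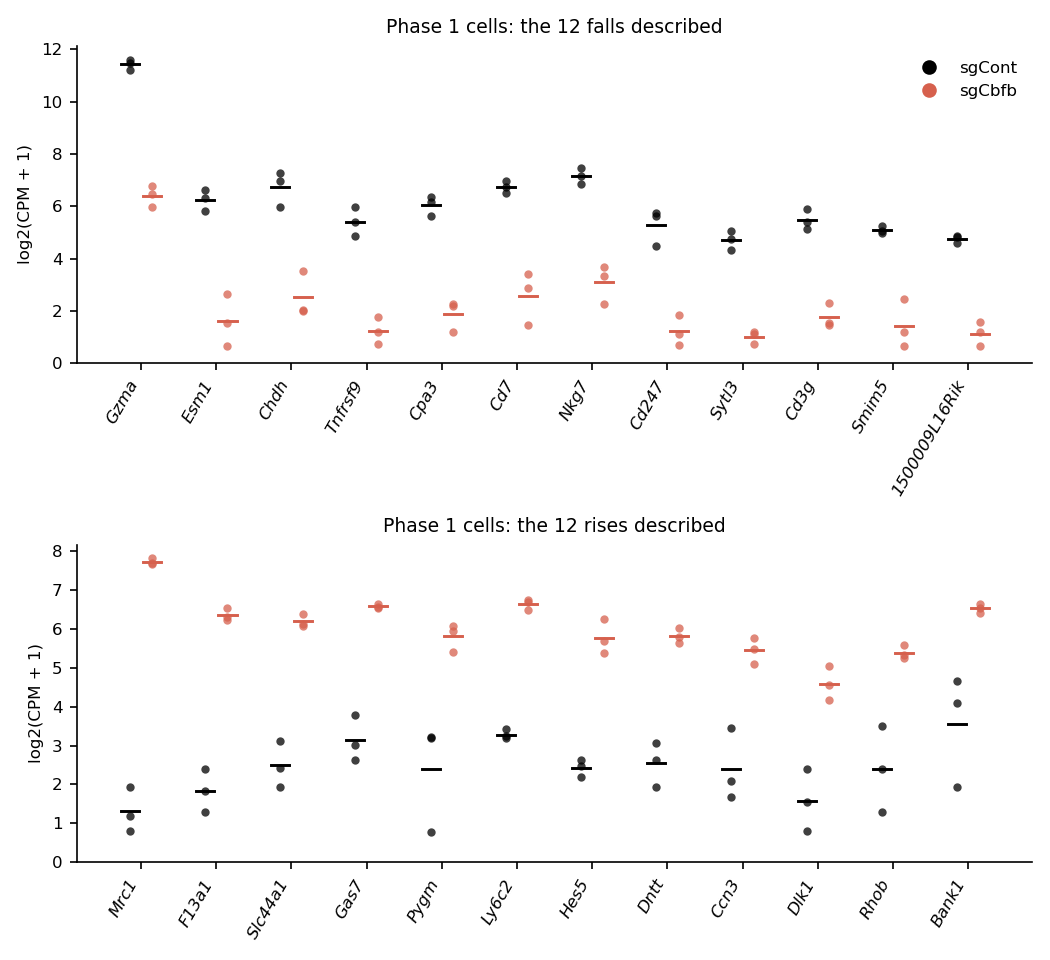
Levels as log2(CPM + 1) in each Phase 1 library, with sgCont in black and sgCbfb in orange, for the 12 largest falls (upper panel) and the 12 largest rises (lower panel). Genes were chosen among calls above 0 in all 6 libraries and with groups that do not overlap, so the separation shown was required. Points are libraries and bars are means, with Gzma starting highest and Mrc1 rising most.

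Some rises started from almost no reads. In 12 of the 260 higher genes each sgCont library held 3 reads or fewer. Cacnb4, a calcium channel subunit, and Esam, an endothelial adhesion molecule, had 0 reads in all 3 sgCont libraries and 13.98 ± 5.01 and 10.6 ± 2.77 CPM in sgCbfb. Against a floor of 3 reads per library they were at least 6.71-fold and 5.07-fold higher. Tgfb2, a cytokine of the TGF-β family, was at 0.705, 1.94 and 0 CPM in sgCont and at 33.7, 23.9 and 25.9 CPM in sgCbfb. Stc1, a secreted glycoprotein hormone, was at 1.41, 0 and 0 CPM in sgCont and at 26.6, 21.4 and 22.4 CPM in sgCbfb. P2ry12, an ADP receptor of platelets and microglia, was at 0.215 ± 0.372 CPM in sgCont and 13.5 ± 6.22 CPM in sgCbfb. Zbtb7b (ThPOK), a regulator of helper T cell fate, was at 1.41, 1.94 and 1.47 CPM in sgCont and at 16.2, 17.0 and 16.5 CPM in sgCbfb. The fall of Esam's mean below 10 CPM without sgCbfb replicate 1 ended its call, and the calls of the others held in every alternative in which a library was left out.

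The gene lists were read by function, and their counts are set beside the 1.56% of tested genes that were lower and the 1.96% that were higher. Of 372 tested members of 20 lists, 44 were lower and 37 higher, and 162 lower and 223 higher genes were in no list.

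Of 23 tested genes of the Notch pathway, 4 were lower and 1 was higher, with a median log2 change of 0.20, or -0.08 without sgCont replicate 3. Tcf7, which encodes TCF1 and starts the T-lineage program, was at 183, 149 and 111 CPM in sgCont and at 12.97, 8.17 and 17.1 CPM in sgCbfb. Gata3 was at 131, 152 and 142 CPM in sgCont and 45.4, 44.6 and 39.5 CPM in sgCbfb. Il2ra, the CD25 chain used to stage T progenitors, was at 410.1, 355 and 348 CPM in sgCont and 121, 106 and 119.6 CPM in sgCbfb. The groups were separate for all 3 genes (log2 -3.46 ± 0.49, -1.69 ± 0.19 and -1.68 ± 0.32, adjusted p = 6.3e-05, 3.5e-06 and 0.0015). Cpa3 was the other fall and Hes5 the rise. Without moderated variances Il2ra was no longer called (adjusted p = 0.0608).

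Several other Notch targets and receptors did not pass the test. Hes1, a repressor induced by Notch, was at 98.1, 103 and 56.5 CPM in sgCont and 99.8, 84.8 and 103 CPM in sgCbfb, with overlapping groups (adjusted p = 0.88). Nrarp, a feedback inhibitor of Notch, was at 57.9 ± 18.1 CPM in sgCont and 116 ± 14.2 CPM in sgCbfb (log2 1.04 ± 0.46, adjusted p = 0.24), but was called higher by edgeR and DESeq2. Dtx1, a ubiquitin ligase of the pathway, was at 104, 104 and 135 CPM in sgCont and 32.4, 57.2 and 38.9 CPM in sgCbfb. Its groups did not overlap, but it missed the threshold in limma (log2 -1.43 ± 0.47, adjusted p = 0.08) and was called lower by edgeR and DESeq2. Among receptors, Notch1 was at 534 ± 22.2 CPM in sgCont and 647 ± 62.3 CPM in sgCbfb, and Notch3 at 20.04 ± 4.65 and 27.6 ± 7.31 CPM. Neither passed the test (adjusted p = 0.27 and 0.74).

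Among 21 tested T-lineage transcription factors, 3 were lower and 2 higher. Bcl11b, which commits progenitors to the T lineage, joined Tcf7 and Gata3 and was at 489, 470.3 and 356 CPM in sgCont and 38.9, 35.2 and 38.3 CPM in sgCbfb (log2 -3.50 ± 0.25, adjusted p = 3.9e-09). Its level in sgCbfb Phase 1 cells was below the 76.3 ± 12.2 CPM of sgCont LPs. The rises were Zbtb7b and Nfatc2, the latter not called without sgCbfb replicate 1. Gfi1, a repressor active in early T cells, was at 29.6, 16.1 and 0 CPM in sgCont and 6.48, 2.51 and 5.89 CPM in sgCbfb (adjusted p = 0.82). It became a fall without sgCont replicate 3 (log2 -2.02, adjusted p = 0.0232), and the count of falls was then 4.

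**Figure D3:**
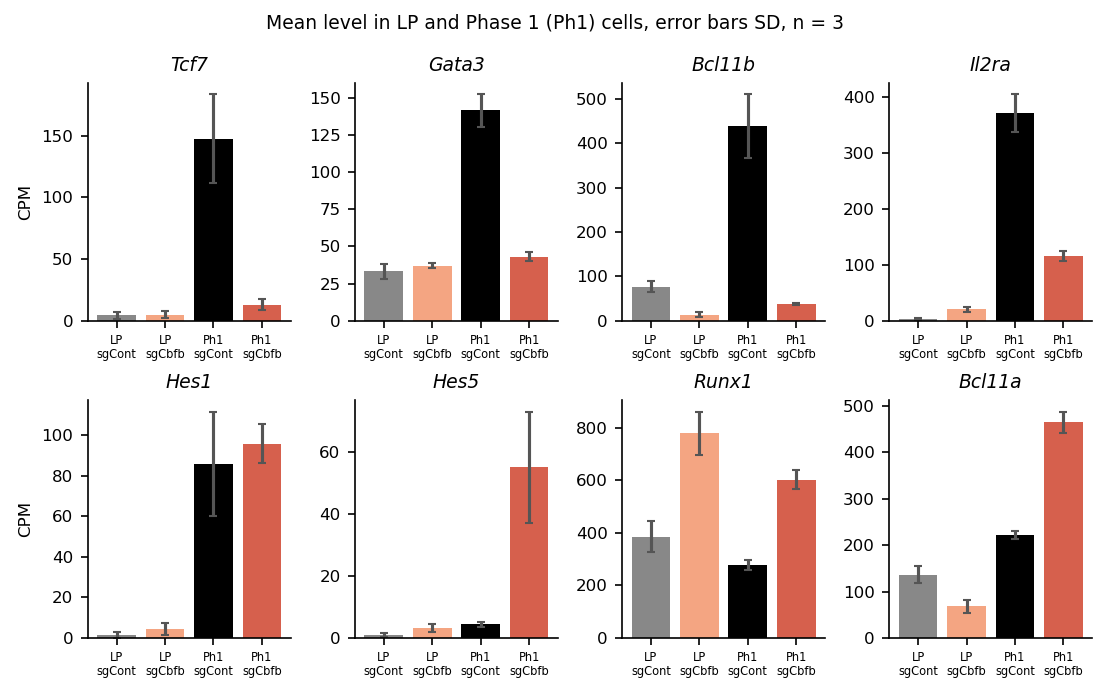
Mean CPM of 8 genes in LPs of the first experiment and in Phase 1 cells (Ph1), with bars for sgCont (grey and black) and sgCbfb (light and dark orange) and error bars of 1 SD over 3 libraries. Tcf7, Gata3, Bcl11b and Il2ra were lower in sgCbfb than in sgCont Phase 1 cells, Hes1 overlapped, and Hes5, Runx1 and Bcl11a were higher.

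The 32 tested genes of the TCR and its signalling held the most falls, 10, with 3 rises and a median log2 change of -0.66. Beside the CD3 chains, the kinase gene Lck was at 298, 250.3 and 286 CPM in sgCont and 57.7, 40.2 and 44.8 CPM in sgCbfb. Lat, the adaptor that LCK and ZAP70 signals converge on, was at 21.2, 33.5 and 46.2 CPM in sgCont and 7.13, 1.89 and 2.95 CPM in sgCbfb. Both had separate groups (log2 -2.53 ± 0.22 and -2.87 ± 0.55, adjusted p = 9.7e-08 and 0.0018). The other falls were the kinase gene Txk, the constant regions Trbc1, Trdc and Trgc4, and Thy1. Trbc1 fell from 166 ± 11.9 to 44.1 ± 7.67 CPM, Trdc from 398 ± 45.2 to 182 ± 25.4 CPM and Thy1 from 342 ± 36.9 to 141 ± 12.9 CPM. Trgc4 was at 179 ± 19.1 CPM in sgCont and 88.4 ± 9.71 CPM in sgCbfb, and without sgCont replicate 3 or sgCbfb replicate 1 its ratio no longer reached the fold threshold. Reads of the similar constant regions may be divided among the genes. Rag1, a subunit of the V(D)J recombinase, moved the other way, from 15.7 ± 2.28 to 55.0 ± 10.7 CPM, as did Dntt. The costimulatory receptor gene Cd28 rose from 14.9 ± 2.18 to 56.1 ± 10.7 CPM.

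Of 24 tested cytotoxic and innate lymphoid genes, 8 were lower and none higher, also with edgeR and DESeq2, and 13 had an unadjusted p under 0.05, as did 17.8% of all tested genes. Zbtb16 (PLZF), the regulator of innate-like lymphocytes, was at 24.7, 27.7 and 32.3 CPM in sgCont and at 2.59, 0 and 1.18 CPM in sgCbfb. Ctsw, a protease of cytotoxic lymphocytes, was at 31.8, 31.0 and 41.8 CPM in sgCont and 1.95, 6.28 and 5.89 CPM in sgCbfb. Il18r1, the IL-18 receptor chain, was at 84.7, 55.5 and 48.4 CPM in sgCont and 16.9, 13.8 and 8.84 CPM in sgCbfb. The groups did not overlap for any of these (limma, adjusted p = 4.8e-05, 0.00037 and 0.00015). Cst7, an inhibitor of granule proteases, fell from 50.0 ± 14.3 to 23.7 ± 7.52 CPM, and was not called without sgCont replicate 1 or sgCbfb replicate 2. The summed level of the NK and innate lymphoid markers was 25.4 to 32.3 CPM in sgCont and 1.18 to 3.89 CPM in sgCbfb, of which Zbtb16 made up nearly all, while Ncr1 and Eomes were at 0 reads in both groups.

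Of 24 tested progenitor genes, 10 were higher, 1 was lower and 13 were not called, with a median log2 change of 0.64. The single fall was Zfpm1, which was not called without sgCont replicate 1 or sgCbfb replicate 3. Nfe2 was a second fall with edgeR and DESeq2, and Mycn without sgCont replicate 3. Hoxa5 was at 80.5, 68.4 and 34.5 CPM in sgCont and 257, 236 and 246 CPM in sgCbfb, Hoxa10 at 45.9, 47.7 and 60.9 CPM and 156, 163 and 155 CPM. Mef2c, a regulator of lymphoid progenitors, was at 246, 291 and 359 CPM in sgCont and 997, 946 and 863 CPM in sgCbfb. These 3 genes rose in every sgCbfb library (log2 2.08 ± 0.22, 1.61 ± 0.14 and 1.66 ± 0.12, adjusted p = 1.3e-06, 6.8e-08 and 6.2e-09). In LPs of the first experiment they were at 334 ± 69.3, 219 ± 3.08 and 961 ± 65.6 CPM in sgCont, and the sgCbfb effect was larger in Phase 1 for each (interactions 2.27, 1.48 and 1.51, adjusted p = 0.00021, 0.00017 and 2.3e-05). The receptor tyrosine kinase gene Flt3 was at 36.7, 56.1 and 15.4 CPM in sgCont and 104, 109 and 82.5 CPM in sgCbfb, and lost its call without moderated variances (adjusted p = 0.0841). Cd34 rose from 163 ± 11.5 to 434 ± 16.8 CPM, Cd44 from 88.6 ± 36.2 to 224 ± 5.05 CPM and Hoxa9 from 253 ± 18.9 to 564 ± 45.0 CPM. Spi1, which encodes PU.1, was at 96.8 ± 18.9 and 113 ± 15.6 CPM and did not pass the test (adjusted p = 0.56). Kit, the stem cell factor receptor, was at 145, 172 and 80.7 CPM in sgCont and 73.9, 89.2 and 83.1 CPM in sgCbfb (adjusted p = 0.11). Without sgCont replicate 3 Kit was lower (log2 -0.94 ± 0.19, limma, adjusted p = 0.0004), but its ratio stayed under the fold threshold of a call.

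Monocyte, macrophage and granulocyte genes gave 6 rises and 2 falls among 25 tested. Adgre1 (F4/80) was at 16.2, 23.2 and 12.5 CPM in sgCont and 93.4, 94.9 and 109.6 CPM in sgCbfb (log2 2.49 ± 0.21, adjusted p = 4.4e-08). The Fc receptor gene Fcgr3 rose from 13.9 ± 3.58 to 53.3 ± 9.77 CPM and Csf2rb, the common β chain of the GM-CSF receptor, from 26.6 ± 5.41 to 74.4 ± 6.95 CPM. Csf2rb has a near-identical neighbour, Csf2rb2, which was also called higher. Itgax (CD11c) went the other way, with 43.1, 48.4 and 40.3 CPM in sgCont and 5.83, 5.66 and 5.30 CPM in sgCbfb (log2 -2.76 ± 0.53, adjusted p = 0.0017). The summed level of the monocyte and macrophage markers was 40.9 to 52.8 CPM in sgCont and 124 to 128 CPM in sgCbfb. Adgre1 carried that difference, with Cd14 at 0 reads and Lyz2 at 3 reads over all 6 libraries. Itgam, at 26.1 ± 6.64 CPM in sgCont and 22.15 ± 6.67 CPM in sgCbfb, was not called, and Csf1r had 12 reads in sgCont and 22 in sgCbfb. The part of other cell types in the difference was not tested.

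All 5 calls among 16 tested genes of B-lineage and lymphoid priming were falls, also with edgeR and DESeq2, and 8 of the 16 had an unadjusted p under 0.05. Ly6d, a marker of B-biased lymphoid progenitors, was at 436, 369.7 and 217 CPM in sgCont and 26.6, 39.6 and 35.4 CPM in sgCbfb. Jchain, the immunoglobulin joining chain, was at 104, 106 and 73.4 CPM in sgCont and 18.2, 11.9 and 15.9 CPM in sgCbfb. The groups were separate for both (log2 -3.25 ± 0.28 and -2.54 ± 0.23, adjusted p = 7.2e-08 and 1.1e-07), and both fell further in LPs (interactions 2.72 and 1.71, adjusted p = 0.00053 and 0.0061). Cd24a fell from 122 ± 23.6 to 39.8 ± 7.59 CPM. Il7r, the IL-7 receptor chain, was at 156 ± 17.7 and 145 ± 4.08 CPM and did not pass the test (adjusted p = 0.8). Without sgCbfb replicate 3 the falls numbered 3, and Ighm was called higher without sgCont replicate 1 or sgCbfb replicate 2 or 3. Among 18 dendritic cell genes 5 were lower and Flt3 was higher, with 3 falls without sgCbfb replicate 2. The chemokine receptor gene Ccr9 fell from 131 ± 18.0 to 58.0 ± 8.52 CPM and the class II gene H2-Aa from 18.9 ± 2.99 to 2.72 ± 3.10 CPM, the latter not called with a pseudocount of 0.1 (adjusted p = 0.116).

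Cytokine receptors and their feedback regulators split evenly, with 5 falls and 5 rises among 33 tested. Falls were receptor chains of the IL-2, IL-12, IL-17 and IL-18 families. Rises included both feedback inhibitors of cytokine signalling that were called, Socs2 and Cish. Socs2 was at 589, 546 and 541 CPM in sgCont and 1668, 1558 and 1555 CPM in sgCbfb, and its rise was larger in Phase 1 than in LPs (interaction 1.28, adjusted p = 7.7e-06). Cish rose from 40.8 ± 5.88 to 119.7 ± 12.4 CPM and Il6st (gp130) from 27.9 ± 3.40 to 86.7 ± 7.70 CPM. Without sgCbfb replicate 2 the falls of this list numbered 3.

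Among 26 chemokine receptors and homing molecules 6 were lower and 5 higher. Itgae, the αE integrin, was at 18.4, 9.03 and 11.0 CPM in sgCont and at 1.30, 0.628 and 0 CPM in sgCbfb. Itga6, the α6 integrin, rose from 187 ± 14.04 to 431 ± 38.1 CPM. These counts moved when a single library was left out, with 3 falls without sgCbfb replicate 1 or 3, and 3 rises without sgCbfb replicate 1. Of 19 tested receptors and ligands of the TNF family, Tnfrsf9 was lower and 2 were higher, Tnfrsf1a and Tnfrsf13b. Without sgCont replicate 1 or 3 or sgCbfb replicate 1 a single rise was left.

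Survival and death genes of the Bcl2 family gave 3 rises and no falls among 12 tested, also with edgeR and DESeq2, and 5 of the 12 had an unadjusted p under 0.05. Bcl2l1 (Bcl-xL), which protects cells, was at 11.999, 17.4 and 18.3 CPM in sgCont and 38.9, 37.1 and 40.7 CPM in sgCbfb. Pmaip1 (Noxa), which promotes death and is a p53 target, was at 19.8, 16.8 and 11.7 CPM in sgCont and 58.4, 57.2 and 47.1 CPM in sgCbfb. The third rise, Bbc3 (Puma), also promotes death. Pmaip1 and Bbc3 were the only calls among 18 p53 targets, Bbc3 not being called without sgCont replicate 1 or sgCbfb replicate 1 or 2, and Pmaip1 rose more in Phase 1 than in LPs (interaction 1.65, adjusted p = 0.016). That interaction did not pass without sgCont LP replicates 1 or 2 or sgCbfb Phase 1 replicates 1 or 2 (adjusted p = 0.0524, 0.0536, 0.0588 and 0.0593).

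No member was called among 25 genes of replication and mitosis, 18 of MHC class I presentation or 6 Gimap GTPases, by limma, edgeR or DESeq2. At an unadjusted p under 0.05 the numbers were 11, 6 and 2, beside 17.8% of all tested genes, and 2, 3 and 1 members had an adjusted p under 0.05 but missed the other thresholds of a call. Without sgCont replicate 1, Bub1b, Cdc20 and Cdk1 of the mitosis genes were called higher. Mki67, for example, was at 657 ± 75.6 CPM in sgCont and 704 ± 47.2 CPM in sgCbfb, and Mcm7 at 1238 ± 146 and 977 ± 84.8 CPM (adjusted p = 0.67 and 0.058). Of 31 interferon-stimulated genes Ifitm3 alone was called, a fall from 41.2 ± 2.78 to 12.2 ± 3.97 CPM that lost its call without sgCbfb replicate 1 (adjusted p = 0.0581). Bst2 and Isg20 became falls with edgeR and without sgCont replicate 3, which made 3. Outside the list, the interferon-induced genes Ifitm1 and Ifitm2 were called lower and Gbp4 and Gbp9 higher. Cpa3 was the only call among 6 tested genes of erythroid, megakaryocyte and mast cells, and neither of 2 tested stromal genes was called by limma. These 2 were Sparc and Pdgfrb, both with an unadjusted p under 0.05. Pdgfrb, the PDGF receptor β, was at 11.3, 25.2 and 8.80 CPM in sgCont and 7.13, 2.51 and 1.77 CPM in sgCbfb and was a fall with edgeR, with DESeq2 and without sgCont replicate 3.

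**Figure D4:**
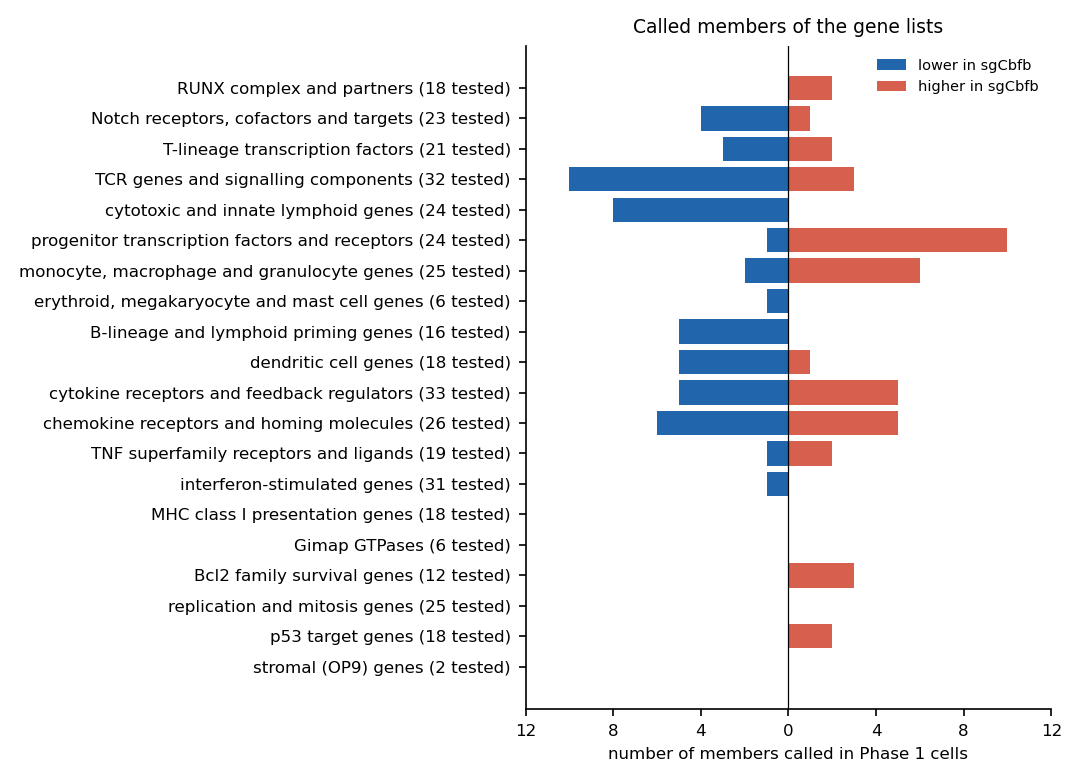
Number of members of each of 20 gene lists called lower (blue, to the left) and higher (orange, to the right) in sgCbfb Phase 1 cells, with the number of members tested in brackets. Falls were most numerous among TCR genes (10 of 32) and rises among progenitor genes (10 of 24), and 4 lists had no call.

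Several calls were lost when a single library was left out, some of them with any of several libraries. Without sgCbfb replicate 1, 13 of the 97 called genes described by rule were no longer called. Among them were the chemokine gene Ccl5 (adjusted p = 0.075), Ccr2 (0.056), Nfatc2 (0.077), the interferon-γ receptor gene Ifngr2 (0.097), Il12rb2 (0.09) and Tnfrsf1a (0.097). Without sgCbfb replicate 2, 10 lost their call, including Il2rb (adjusted p = 0.14), H2-Eb1 (0.052), Cd74 (0.074), Lmo2 (0.061) and Ccr7 (0.11). Without sgCbfb replicate 3, 10 lost it, including Bst1 (adjusted p = 0.075), Spib (0.056), Txk (0.07), Zfpm1 (0.11) and Itgb3 (0.13). Without sgCont replicate 1, 6 lost it, including Bbc3 (adjusted p = 0.053). Without sgCont replicate 2, 4 did, all of them named above, and without sgCont replicate 3, 4 did, namely S1pr1 (adjusted p = 0.16), Cd9 (0.072) and, with ratios under the fold threshold, Trgc4 and Tnfrsf13b. In total 23 of the 97 genes lost their call in at least 1 of the 12 fits that left out a library, and none changed direction. Called genes named outside the rule, such as Cst7, are not counted in these numbers.

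Some called genes were neighbours, a pattern noticed after the values were seen and not tested. Of 13206 pairs of adjacent tested genes, both were lower in 17 and both higher in 14, and in 10 they were called in opposite directions. Runs of 3 adjacent falls occurred on chromosomes 7, 12 and 13. On chromosome 7 (chr7:140954837-141010770) lie Ifitm2, Ifitm1 and Ifitm3, interferon-induced membrane proteins that restrict viral entry. Ifitm1 was at 1612, 1483 and 1802 CPM in sgCont and 564, 498 and 487 CPM in sgCbfb, and Ifitm2 fell from 259 ± 65.3 to 103 ± 3.13 CPM. On chromosome 12 (chr12:113146316-113189523) lie Crip1, which fell from 536 ± 114 to 118 ± 2.31 CPM, Tedc1, from 48.3 ± 5.97 to 11.98 ± 0.972 CPM, and Tmem121, from 193 ± 39.4 to 20.03 ± 2.78 CPM. On chromosome 13 Snx18, from 66.1 ± 17.9 to 30.6 ± 8.20 CPM, followed Gzma and Esm1. The adhesion receptor genes Adgrg1 and Adgrg3 on chromosome 8 fell from 277 ± 45.4 to 47.1 ± 6.91 CPM and from 118 ± 5.42 to 39.7 ± 13.8 CPM. Hoxa9 and Hoxa10 were neighbours that rose, and Hoxa3 of the same cluster rose from 8.02 ± 6.69 to 44.6 ± 17.0 CPM. Exons of 63 lower and 81 higher genes overlap another gene, so that reads of neighbours may be shared.

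The calls were set beside the LP libraries, which are separate cultures with their own controls. In LPs of the first experiment, 36 of the 206 Phase 1 falls were also lower, beside 0.597% of all tested genes, and 69 of the 260 rises were also higher, beside 1.10%. The number of shared rises was 45 without LP sgCbfb replicate 1. In the second LP experiment, normalized separately, 72 of the 193 Phase 1 falls tested there were lower (1.65% of all tested genes were) and 107 of 256 rises were higher (2.67%). Both LP experiments called 35 of the falls and 64 of the rises the same way, and 127 falls and 143 rises were called in neither. Direction was shared more widely than calls. In the first LP experiment 161 of the falls (78.2%) had a fold change below 0, as did 49.5% of all genes, and 224 of the rises (86.2%) were above 0, as were 50.0% of all genes. In the second experiment 170 of the falls (88.1%, beside 51.5% of all genes) and 221 of the rises (86.3%, beside 48.4%) had the Phase 1 direction.

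A call in 1 stage is no test of a difference, so the interaction of stage and sgRNA was read for each call. It passed an adjusted p of 0.05 for 48 of the falls and 46 of the rises, beside 1.27% of all tested genes. For 44 of those falls the interaction was negative and for 45 of those rises it was positive, beside 0.657% and 0.612% of all tested genes with an interaction in these directions. The change was the larger in Phase 1 for 42 of these 44 falls and for the 45 rises, while Il2ra and Ifitm3 changed more in LPs, in the opposite direction. These genes were called on the Phase 1 contrast, which is itself part of the interaction. That choice favours interactions in the direction of the call and larger changes in Phase 1, so these counts only describe the calls and cannot measure how far the stages differ. The most negative interactions were those of Cd3g, Colq, Il2ra, Cpa3, Tnfrsf9 and Nrp1. Colq, which anchors acetylcholinesterase, was at 21.2, 12.9 and 22.7 CPM in sgCont Phase 1 cells and 2.59, 1.26 and 4.12 CPM in sgCbfb, but at 0.634 ± 0.642 and 4.98 ± 1.23 CPM in LPs (interaction -4.42, adjusted p = 0.0023). Nrp1, a coreceptor for semaphorins and VEGF, was at 28.9, 45.8 and 16.9 CPM and 3.89, 0.628 and 0 CPM in Phase 1, but at 1.21 ± 1.05 and 0.899 ± 0.448 CPM in LPs. The interaction of Nrp1 (-3.78, adjusted p = 0.036) was lost without any of 10 single libraries, and with edgeR and DESeq2.

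Among the most positive interactions were those of Hpse, Stc1, Htra3, Spic and Cd9. Hpse, the heparanase, was at 3.53, 0 and 5.87 CPM in sgCont Phase 1 cells and 59.6, 57.2 and 53.6 CPM in sgCbfb, and at 6.09 ± 2.54 and 1.05 ± 0.920 CPM in LPs (interaction 6.06, adjusted p = 0.00047). Spic, which is needed for red pulp macrophages, was at 0, 0.645 and 0 CPM in sgCont Phase 1 cells and 11.7, 10.1 and 18.9 CPM in sgCbfb. It had 0 reads in LPs of the first experiment, with and without sgCbfb. The interaction of Spic (3.57, adjusted p = 0.0095) did not pass with a pseudocount of 0.1, edgeR or DESeq2. Htra3, a serine protease, was at 2.28 ± 0.910 CPM in sgCont and 18.2 ± 2.71 CPM in sgCbfb, and its interaction (3.59, adjusted p = 0.016) was lost without LP sgCont replicate 1 or Phase 1 sgCbfb replicate 2 (0.056 and 0.053).

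A few genes were called in opposite directions in the stages. Ifitm3, Il2ra and Tubb3, a neuronal tubulin, were lower in Phase 1 and higher in LPs of the first experiment, and Bcl11a and Mn1, a pair of progenitor regulators, were higher in Phase 1 and lower in LPs. Tubb3 was at 79.8, 74.8 and 88.0 CPM in sgCont Phase 1 cells and 12.3, 17.0 and 20.04 CPM in sgCbfb, and Bcl11a at 212, 223 and 229.6 CPM and 442, 489 and 462 CPM. The groups were separate in both, and the interactions were -3.43 and 2.07 (adjusted p = 8.1e-05 and 7.7e-06). Of these 5 genes, Ifitm3, Il2ra, Bcl11a and Mn1 were also called in opposite directions against the second LP experiment. There, however, 25 of the 31 interferon-stimulated genes, Ifitm3 included, were called higher with sgCbfb, beside 4 in the first LP experiment. Ifitm3 stood at 66.3 ± 51.3 CPM in those sgCbfb libraries. In all, 5 Phase 1 falls and 5 Phase 1 rises were called the opposite way there, Ccl5 and Zfpm1 being among the falls. Ccl5 rose there from 0.267 ± 0.0262 to 21.7 ± 4.93 CPM. Nfe2 was at 38.8, 34.8 and 48.4 CPM in sgCont Phase 1 cells and 16.2, 23.2 and 19.4 CPM in sgCbfb, which limma did not call (adjusted p = 0.081) and edgeR and DESeq2 did. Gba2, Ccdc171 and Ctla4, which also belong to the genes named by the study, had Phase 1 adjusted p of 0.23, 0.092 and 0.28 and interaction adjusted p of 0.12, 0.075 and 0.15. Zfpm1 (FOG-1), a GATA cofactor, was at 80.5, 53.5 and 57.2 CPM in sgCont and 32.4, 34.6 and 19.4 CPM in sgCbfb. It was called (adjusted p = 0.014), but not without sgCont replicate 1 or sgCbfb replicate 3 (0.071 and 0.11).

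**Figure D5:**
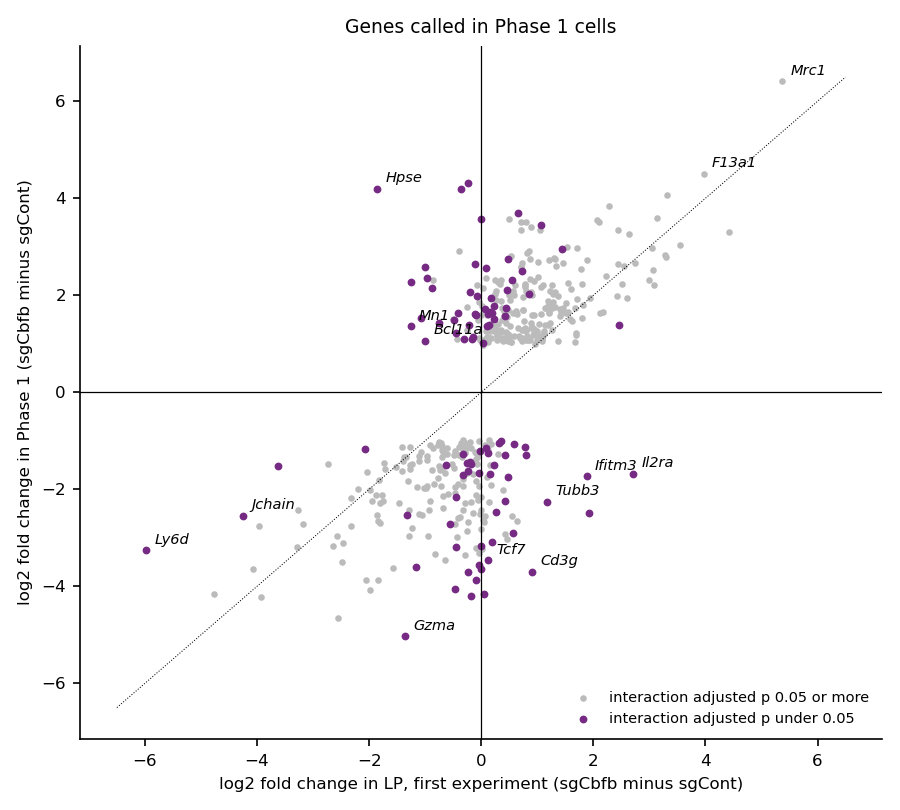
Log2 fold change (sgCbfb minus sgCont) in Phase 1 cells against that in LPs of the first experiment for the 466 genes called in Phase 1, with purple points for an interaction under an adjusted p of 0.05 and a dotted line of equal change. Most points lie in the quadrants of shared direction, and Il2ra, Ifitm3, Tubb3, Bcl11a and Mn1 lie in the opposite ones.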

How the data were processed

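QuantSeq 3′ end libraries of 24 samples were used, 12 in each experiment and 3 per group, described in the study's methods as independent biological replicates, although nothing ties replicate numbers to shared cultures. The authors trimmed the reads with fastp and mapped them to mm10 with STAR, as the processing notes say, and deposited CPM values (counts scaled to a fixed total of reads on genes) for 55487 genes, in columns that the files name TPM. The values were not divided by gene length, and 99.97% to 99.98% of those of a Phase 1 library were whole multiples, within 0.1, of the value of 1 read. The reads thus recovered were used for edgeR and DESeq2 alone. A single line without a gene identifier in each file, at most 7.34e-05% of a library, was left out, and 0 columns belonged to samples of other series. Counter, annotation and use of strand are not given in the sources used here.

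The main test was limma (version 3.58.1, R 4.3.3), applied to log2(CPM + 1) of genes with at least 1 CPM in 3 or more libraries. The 4 groups of an experiment shared a single fit with trended variances, and with Benjamini-Hochberg adjustment over all genes tested. The thresholds for a call are those of the study. Exact permutation of 3 libraries against 3 cannot give a two-sided p below 0.1. On counts simulated for 12866 genes, the Phase 1 comparison called 83 of 100 genes changed 2.5-fold, 100 of 100 changed 5-fold and 1 of 12666 unchanged genes. In the simulation all groups shared the mean of a gene, apart from the changes, and the spread followed the mean level. Changed genes were drawn from those above a set level, and no library stood apart as sgCont replicate 3 does. These counts are therefore not error rates of the real calls. edgeR 4.0.16 and DESeq2 1.42.0 on recovered reads, other scalings, pseudocounts and filters, a replicate block and leaving out each library were the alternatives. Names and positions came from GENCODE M21 (GRCm38), which held 55227 of the identifiers, and promoters from RefSeq on GRCm38.p6.

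Genes were described by rule, namely Cbfb and the Runx genes, the 12 largest falls and rises among calls above 0 in all libraries and without overlap, the 5 largest bounds in each direction among calls with a group at 3 reads or fewer per library, up to 6 called members per list and direction, the 6 largest interactions in each direction, and genes the study names. Some genes that the rule picks are not reported here. Other names were chosen after their values were seen. The members and lists were chosen with earlier results of these data known. Of the list symbols, 475 matched and 372 were tested, and Tcrg-C1, Tcrg-C2 and Tcrg-C4 had no match. A floor of 3 reads per library corresponds to 2.08 CPM in sgCont and 1.87 CPM in sgCbfb.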

Additional observations from a re-analysis of the deposited data

Results flagged for a closer look

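The effect of sgCbfb differed between Phase 1 cells and LPs of the first experiment for 38 of the genes described by rule, by the limma interaction at a Benjamini-Hochberg adjusted p under 0.05. Values are the log2 effect in Phase 1 minus that in LPs, over 3 libraries in each group.

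T-lineage and Notch genes with a more negative effect in Phase 1 were Tcf7 (-3.58), Gata3 (-1.85), Il2ra (-4.38) and Cpa3 (-4.21). The TCR genes were Cd3g (-4.61), Cd247 (-3.59) and Trgc4 (-1.37). Members of the progenitor list with a more negative effect were Nfe2 (-2.72), Zfpm1 (-1.91) and Kit (-2.28). Nfe2 and Kit were not called in Phase 1 cells alone. For Gata3, LP levels of 33.2 ± 4.96 CPM in sgCont and 36.9 ± 1.68 CPM in sgCbfb were close to the 43.2 ± 3.21 CPM of sgCbfb Phase 1 cells, and sgCont Phase 1 cells were at 141 ± 10.8 CPM. In sgCont LPs Tcf7 was at 4.52 ± 2.85 CPM, Cd247 at 5.14 ± 0.738, Cd3g at 0.411 ± 0.357 and Cpa3 at 0.619 ± 1.07, where a fall could hardly be seen. In the second LP experiment Tcf7, Cd247, Cd3g and Trgc4 were lower with sgCbfb (log2 -1.80, -1.44, -1.37 and -0.64, limma, adjusted p = 0.00075, 0.0083, 0.035 and 0.0043). Il2ra, Nfe2, Zfpm1 and Kit were higher there (adjusted p under 0.05), and Gata3 did not pass the test.

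Effector and surface genes with a more negative effect were Gzma (-3.66), Sytl3 (-3.46), Tnfrsf9 (-4.02), Itgae (-3.28), Ifitm3 (-3.60), Nrp1 (-3.78), Colq (-4.42) and Tubb3 (-3.43). Several of these had few reads in LPs, such as Sytl3 at 0.214 ± 0.371 CPM in sgCont LPs, where a fall could not be seen at this depth. Tnfrsf9 and Nrp1 were at 2.08 ± 1.32 and 1.21 ± 1.05 CPM in sgCont LPs. In the second LP experiment Tnfrsf9 and Nrp1 were lower with sgCbfb (log2 -2.13 and -1.56, limma, adjusted p = 3.9e-05 and 0.016). Colq and Ifitm3 were higher there, and Gzma, Sytl3, Itgae and Tubb3 did not pass the test.

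Progenitor and signalling genes with a more positive effect in Phase 1 were Mef2c (1.51), Hoxa5 (2.27), Hoxa10 (1.48), Flt3 (1.69), Bcl11a (2.07), Mn1 (2.62), Runx2 (1.73), Socs2 (1.28), Slc44a1 (3.04), Gas7 (2.38) and Pmaip1 (1.65). Macrophage and secreted products with a more positive effect were Adgre1 (1.77), Spic (3.57), Hpse (6.06), Htra3 (3.59), Stc1 (4.55) and Cd9 (3.53). In the second LP experiment Runx2, Mef2c and Gas7 were higher with sgCbfb (log2 0.55, 0.32 and 1.72, limma, adjusted p = 0.025, 0.023 and 1.7e-08). Flt3, Bcl11a, Mn1 and Cd9 were lower there (adjusted p under 0.05). Spic and Stc1 were not tested there, and the others above did not pass the test. Jchain (1.71), Ly6d (2.72) and Ccr9 (0.91) had positive values because they fell in both stages and fell further in LPs, as with Ccr9, at 989 ± 33.3 CPM in sgCont LPs and 235 ± 20.4 CPM in sgCbfb LPs.

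Of these 38 interactions, 14 passed under every alternative, 24 were lost under at least 1 and none reversed. With 1 library left out, 8 were lost in at least 1 refit. Itgae did not pass without any of 11 single libraries, Nrp1 without any of 10, Cd9 and Flt3 without any of 8 each, Ccr9 without 5, Pmaip1 without 4, Cd247 without 3 and Htra3 without 2, with adjusted p from 0.0502 to 0.167 in those refits. With a pseudocount of 0.1 the interactions of 12 genes did not pass, which were Cpa3, Tnfrsf9, Nrp1, Stc1, Htra3, Spic, Cd9, Gzma, Cd247, Sytl3, Flt3 and Itgae. Without moderated variances 19 did not pass. With edgeR those of Cpa3, Nrp1, Stc1, Spic, Sytl3 and Itgae did not pass, and with DESeq2 those of Nrp1, Spic, Sytl3 and Itgae.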

How the results depend on the processing

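Under other scalings, pseudocounts, filters and tools the calls ranged from 152 to 290 lower and from 183 to 388 higher genes, with the lowest numbers without moderated variances and the highest without a fold threshold. edgeR gave 233 lower and 265 higher and DESeq2 224 and 249. No setting moved the median of all genes by more than 0.1 on the log2 scale. With 1 library left out, 168 to 225 genes were lower and 198 to 358 higher, with the 358 reached without sgCont replicate 1, 29 to 50 of the falls and 45 to 81 of the rises were shared with LPs of the first experiment, 64 to 75 and 87 to 115 with the second, 65 to 114 calls passed the interaction, and 36 to 50 list members were lower and 31 to 39 higher. Without moderated variances 39 calls passed the interaction instead of 94, and without a fold threshold the shared falls numbered 59 in the first LP experiment and 131 in the second and the shared rises 205 in the second. With TGTGGT as the only motif the promoter shares of lower, higher and all tested genes were 24.7%, 18.1% and 15.3%. With TGCGGT as the only motif they were 10.4%, 8.54% and 11.3%, and the cause of these differences was not tested. Deviations of libraries with the same replicate number from their group means correlated at 0.0546, -0.000248 and 0.000576 between the groups. Such values cannot tell whether these libraries shared a culture. With a replicate block 208 genes were lower and 272 higher, 103 calls passed the interaction, and no call of a gene described by rule changed. Of the 97 called genes described by rule, 65 held in every alternative, 32 lost their call in at least 1, and none reversed. With only the compared groups in the fit no interaction could be fitted. The required mean over 10 CPM kept calls above the 1.77 to 2.20 CPM that 0 reads allow in a Phase 1 library.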

Other observations

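Called genes outside every list included neighbours of list genes and some that the report does not describe. All names here were chosen after their values were seen. Lgmn, the lysosomal protease legumain, rose in Phase 1 cells from 4.97 ± 2.49 CPM in sgCont to 33.4 ± 3.65 CPM in sgCbfb (limma, adjusted p = 0.00021), and Tmem119, a membrane protein known from microglia, from 8.50 ± 8.99 to 31.3 ± 8.95 CPM (adjusted p = 0.0066). Irf5, a transcription factor of macrophages, was at 16.2, 13.5 and 0 CPM in sgCont and 50.6, 21.4 and 25.9 CPM in sgCbfb (adjusted p = 0.044). The adhesion receptor gene Adgrg5 fell from 34.6 ± 2.56 to 2.91 ± 1.003 CPM (adjusted p = 0.00076), while LPs of the first experiment held it at 1.23 ± 1.07 CPM in sgCont and 1.09 ± 1.06 CPM in sgCbfb. In LPs Cbfb loss went with a rise of Kit from 30.2 ± 3.26 to 97.1 ± 7.60 CPM, which was not called in Phase 1 cells, where sgCont replicate 3 held 80.7 CPM of Kit against 145 and 172 CPM in the other two.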
